A study of Gallus gallus with 13 samples.

Results

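The cytosolic ribosomal protein genes are the genes for the protein parts of the large (RPL) and small (RPS) ribosomal subunits. They were chosen by symbol: a probe set counted when the array annotation gave it 1 gene symbol made of RPL or RPS, a number and at most 1 letter, or RPLP0, RPLP1, RPLP2 or RPSA, and the RPS6K kinases were left out. The rule used no measured difference between conditions. It found 132 probe sets for 62 genes, 40 of the large and 22 of the small subunit, among 11498 genes tested. Each gene was read from the probe set with the highest mean signal over all arrays, and all 62 passed the filter on low signal.

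The samples were cultures of primary fibroblasts from White Leghorn chicken embryos at day 10, kept for fewer than 10 passages at 41.5 °C, and total RNA of each was hybridised to 1 Affymetrix chicken array. Contact-inhibited and serum-starved cells (3 arrays) had filled the dish before serum was taken away. Serum-starved cells (3 arrays) were washed while still growing and then kept in serum-free medium. Contact-inhibited cells (4 arrays) were grown to full confluence with their medium renewed, and cycling cells (3 arrays) were collected in log-phase growth. The contact-inhibited and the cycling cells were both in medium with 5% serum. All 4 groups grew in an insulin-containing medium with the same breed and cell type. The replicates are named biological, with no word on separate embryos; p-values therefore refer to the spread between these arrays, whose small number limits the precision.

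Ribosomal proteins assemble with ribosomal RNA in the nucleolus, and a growing cell devotes much of its transcription and translation to making them. In mammals their mRNAs begin with a pyrimidine tract, called a terminal oligopyrimidine or TOP motif, through which mTORC1 and the RNA-binding protein LARP1 adjust translation when growth signals change. The mRNA can then be stored without being lost, so mRNA level and protein synthesis need not move together. Only mRNA level was measured here.

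All 12 listed fibroblast markers were measured. Their summed signal ran over 131730 to 137328 in contact-inhibited and serum-starved and 125431 to 137288 in serum-starved arrays. It ran over 120345 to 127759 in contact-inhibited and 109094 to 118592 in cycling arrays. Among these markers PDGFRA was dim, with group means from 40.5 in cycling to 74.2 in contact-inhibited and serum-starved cells. Such sums cover different genes and probe sets and do not compare cell types. The 7 measured muscle markers summed to 142 to 176, 223 to 264 and 128 to 159 in those arrested groups, against 1851 to 1871 in cycling arrays, with MYH15 at a mean of 767 and MYL4 at 941 in cycling cells and MYOD1, MYOG and DES at 51.3 or less on every array. The 4 measured epithelial markers summed to 229 to 266, 388 to 398 and 87.3 to 168, against 876 to 1340 in cycling arrays, most of it KRT14, while CDH1 and EPCAM stayed at 18.7 or less. Blood, endothelial and neural markers summed to 91.6 to 506 on every array. The ratio of 3′ to 5′ actin control signal was 2.41 in cycling replicate 3 and 1.27 to 1.89 elsewhere, and W-linked genes stood at a mean log2 signal of 5.98 to 6.66 in the arrays without serum and in contact-inhibited replicate 1 (6.28), against 7.07 to 7.30 in the other 6 arrays. The part of the marker differences in the results was not tested. Repeated fits used the W-linked level as a covariate or left out cycling replicate 3, and their counts are given below. They do not name a cause. In bulk RNA, fewer cells of a type and less RNA per cell cannot be told apart.

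The ribosomal protein genes were among the brightest on the array. Of the 62, 58 had a mean signal of at least 5000, and the members held 40 of the 100 brightest chicken probe sets. RPS20, a protein of the small-subunit head, was the brightest at 17810, and RPL23 the dimmest of these 58 at 5759. The median over all members was 12504, with 11825 for large-subunit and 13460 for small-subunit genes; levels of different probe sets also depend on their probes and are not compared further. Together the members carried 5.19% to 5.35% of all signal in contact-inhibited and serum-starved, 5.00% to 5.45% in serum-starved, 5.44% to 5.81% in contact-inhibited and 5.11% to 5.47% in cycling arrays. Whether the brightest probe sets were near saturation is not known from the files.

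The 4 members below 5000 were RPL31 (2249), RPS27L (1487), RPS13 (651) and RPL3L (37.5). RPL31 sits at the exit of the tunnel through which the new protein leaves. RPS27L is a paralog of RPS27 that p53 induces in human cells, and RPL3L is a paralog of RPL3 made in striated muscle of mammals. RPS13 is a core small-subunit protein, and its chosen probe set is treated separately, because its ID marks it as designed in the antisense orientation.

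**Figure D1:**
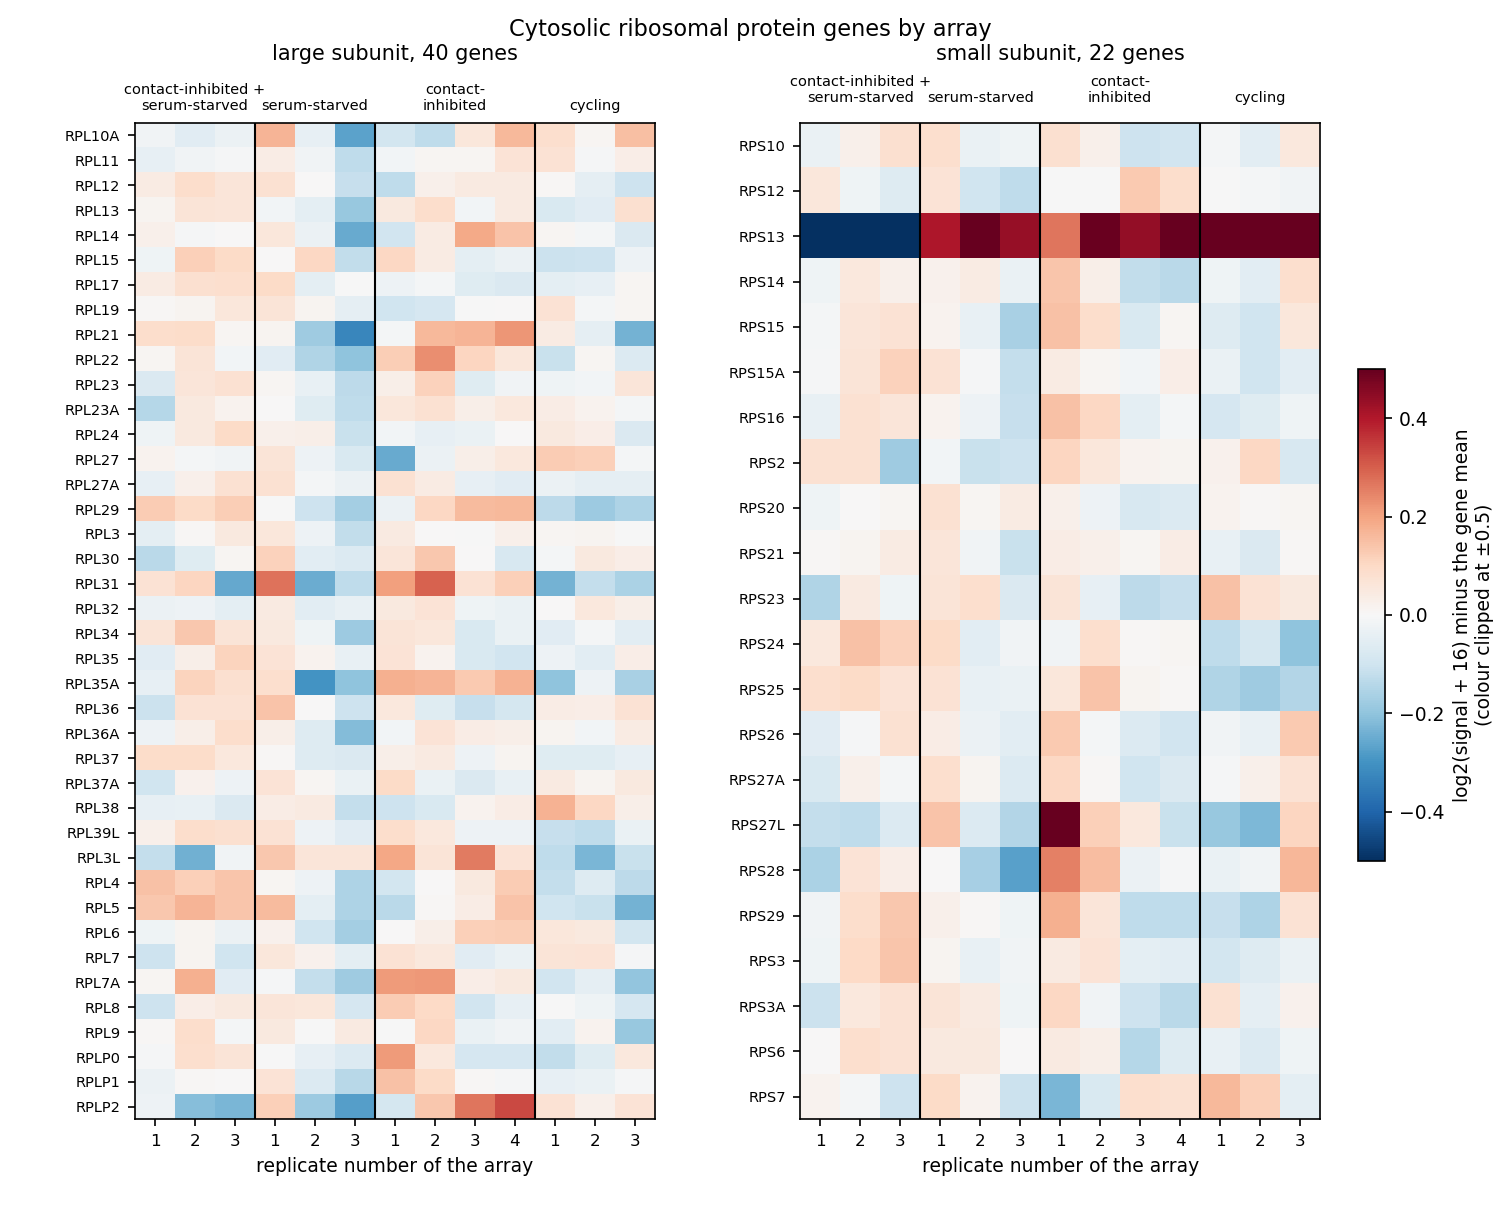
Level of each of the 62 genes on each of the 13 arrays, as log2(signal + 16) minus the gene's own mean, for 40 large-subunit genes (left) and 22 small-subunit genes (right). Columns run from contact-inhibited and serum-starved through serum-starved and contact-inhibited to cycling arrays, and colours are clipped at 0.5 in either direction. Most cells are pale, and the RPS13 probe set stands out as dark blue in the contact-inhibited and serum-starved arrays and red in all others; RPS27L in contact-inhibited replicate 1 also reaches the end of the colour range.

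Across the 58 bright genes the spread was narrow. The highest array stood above the lowest by a median ratio of 1.2 per gene, and by 1.53 at most, for RPLP2. Within a culture group the median coefficient of variation was 4.72%. The median log2 signal of the members ran over 13.54 to 13.65 in contact-inhibited and serum-starved, 13.46 to 13.65 in serum-starved, 13.57 to 13.67 in contact-inhibited and 13.54 to 13.58 in cycling arrays. The groups overlapped, and the lowest value (serum-starved replicate 3) and the highest (contact-inhibited replicate 1) both came from arrested cells.

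Contact-inhibited and serum-starved cells held 6 of the 62 genes at a higher and 1 at a lower level than cycling cells by limma (adjusted p under 0.05 over all 28270 tested probe sets). Of all tested probe sets, 17.5% were higher and 12.1% lower in that comparison. The genes that rose were RPL5, RPL29, RPS24, RPS25, RPL4 and RPL37, by 0.13 to 0.30 on the log2 scale, and the one that fell was RPS13, on its antisense-orientation probe set. The median change of the members was 0.030, against 0.052 for all tested probe sets, and their median absolute change was 0.080, against 0.314. For 61 of the 62 genes the 95% interval of the change lay inside a 1.5-fold difference in either direction, as it did for 35.4% of all tested probe sets. The values of the groups did not overlap for 15 genes that were higher and 7 that were lower, where 45.7% of all tested probe sets were fully apart in either direction (7277 higher and 5655 lower).

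RPL5, which carries 5S ribosomal RNA into the large subunit and binds MDM2 when free of the ribosome, had signals of 10703, 10953 and 10722 in contact-inhibited and serum-starved cells, against 9094, 9005 and 8277 in cycling cells. Every array of the arrested group lay above every cycling array, with a log2 change of 0.30 ± 0.09 (SE) and a limma adjusted p of 0.0201. Its partner on 5S RNA, RPL11, read 13084, 13296 and 13396 in the same arrested cells, against 14133, 13399 and 13782 in cycling cells. RPL11 did not pass (log2 change -0.05, adjusted p = 0.495), so the members of this pair were not called together. RPL5 did not pass either with arrays centred on their medians (log2 change 0.20) or without the trend in limma (log2 change 0.30). The same held without cycling replicate 3 (log2 change 0.25) or without contact-inhibited and serum-starved replicate 2 (log2 change 0.29).

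RPL4, whose extension lines the exit tunnel, read 14218, 13937 and 14145 in contact-inhibited and serum-starved cells, against 11825, 12272 and 11725 in cycling cells. The groups were well apart, with a log2 change of 0.24 ± 0.06 and an adjusted p of 0.0135. RPL29, a large-subunit protein also described as a heparin-binding protein in mammals, read 10617, 10372 and 10582 in the same arrested cells, against 8880, 8563 and 8720 in cycling cells. RPL29 changed by 0.27 ± 0.07 (adjusted p = 0.00867), a 1.21-fold higher signal. RPL37, which is Z-linked, changed least of the 6, by 0.13 ± 0.05 (adjusted p = 0.0475).

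RPS25, a protein of the small-subunit head that several viral RNAs need for initiation in yeast and mammals, read 14777, 14915 and 14633 in contact-inhibited and serum-starved cells, against 12552, 12339 and 12602 in cycling cells. Its change was 0.24 ± 0.05 (adjusted p = 0.00494), the smallest adjusted p among the bright members in this comparison. RPS24, which is mutated in some patients with Diamond-Blackfan anaemia, read 14698, 15711 and 15371 in these arrested cells, against 12988, 13334 and 12347 in cycling cells, a change of 0.24 ± 0.06 (adjusted p = 0.00686). Neither gene had overlapping groups. With arrays centred on their medians, which lowers the median of all tested probe sets to -0.05, or without the trend in limma, none of the 62 genes was called higher, and 4 were lower in the centred data; with array weights 17 were higher and 5 lower.

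Serum-starved cells did not differ from cycling cells in any of the 62 genes by limma, with 0 higher and 0 lower, where 10.1% and 6.53% of all tested probe sets were called. At an unadjusted p under 0.05, 3 genes passed. The median change was -0.012, against 0.052 for all tested probe sets. The 95% interval lay inside a 1.5-fold difference for all 62 genes, so a change of that size in either direction was outside the interval of each. The number of genes with values fully above those of cycling cells was 4 (RPL3L, RPS6, RPS24 and RPS25), with 0 fully below, where 35.1% of all tested probe sets were fully apart in either direction (5826 higher and 4107 lower).

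RPS25 read 14640, 13580 and 13620 in serum-starved cells, and the log2 change against cycling cells was 0.16 (adjusted p = 0.0662). RPS24 read 15141, 13682 and 14000, a change of 0.15 (adjusted p = 0.106). RPS6, which is Z-linked, codes for the small-subunit protein that S6 kinases phosphorylate downstream of mTORC1. It read 15468, 15465 and 14972 in serum-starved cells, against 14599, 14280 and 14740 in cycling cells. Its change was 0.07 (limma adjusted p = 0.432). These 3 genes lay on the higher side in every serum-starved array without passing the test. RPL5 read 10861, 9421 and 8763 in serum-starved cells and overlapped the cycling arrays (adjusted p = 0.326).

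Contact-inhibited cells had 7 of the 62 genes at a higher and 0 at a lower level than cycling cells, where limma called 34.8% of all tested probe sets in either direction (5318 higher and 4513 lower). The genes that rose were RPL3L, RPL35A, RPL29, RPL7A, RPS25, RPL22 and RPS24, by 0.16 to 0.30 on the log2 scale. The median change was 0.050, against 0.068 for all tested probe sets, and the median absolute change 0.067, against 0.320. For 60 of the 62 genes the 95% interval lay inside a 1.5-fold difference, which held for 37.9% of all probe sets. Values were fully apart and higher for 12 genes and lower for 0, where 37.7% of all tested probe sets were fully apart (5838 higher and 4807 lower).

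RPL35A, a large-subunit protein mutated in some patients with Diamond-Blackfan anaemia, read 8288, 8247, 8022 and 8255 in contact-inhibited cells, against 6376, 7192 and 6551 in cycling cells. All 4 arrays lay above all 3, with a change of 0.29 ± 0.09 (adjusted p = 0.0182). RPL22, which binds a small RNA of Epstein-Barr virus in human cells and is needed for T-cell development in mice, read 9667, 10423, 9550 and 9216, against 8196, 8917 and 8450 in cycling cells. RPL22 changed by 0.19 (adjusted p = 0.0328).

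RPL29 read 9510, 10437, 10845 and 10880 in contact-inhibited cells, and its change against cycling cells was 0.25 ± 0.06 (adjusted p = 0.00676). RPS25 read 14516, 15397, 14082 and 14005, a change of 0.21 ± 0.05 (adjusted p = 0.00553). RPL7A, a large-subunit protein, read 12325, 12346, 10875 and 10982, against 9939, 10308 and 9253 in cycling cells, with a change of 0.24 (adjusted p = 0.0263). RPL29 was lowest, and RPL7A near its highest, in contact-inhibited replicate 1, so the spread inside this group ran in different directions for different members.

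RPL31 had the largest change of the 62 genes in contact-inhibited cells, 0.35, with 2575, 2741, 2347 and 2421 against 1892, 2049 and 1995 in cycling cells. The groups did not overlap, and the adjusted p was 0.0518, which did not pass. RPL3L read 44.9, 39.7, 47.7 and 39.8 in contact-inhibited cells, against 32.7, 29.5 and 33.3 in cycling cells, a change of 0.30 (adjusted p = 0.0346) at a signal near the lower limit of the tested range, 22.7. RPL3L did not pass without contact-inhibited replicate 1 or 3 or any 1 of the cycling replicates, RPL7A without contact-inhibited replicate 1 or 2 or cycling replicate 1 or 3, and RPL35A without cycling replicate 1. The count of 7 became 2 without cycling replicate 1, 3 without cycling replicate 3 and 4 without contact-inhibited replicate 2 or 3. It was 1 without the trend in limma. With arrays centred on their medians 0 genes were higher and 3 lower, as the median of all tested probe sets moved to -0.05. The array median was 52.1 in cycling replicate 3 and 62.3 to 68.9 on the other arrays, and its part in this was not tested.

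**Figure D2:**
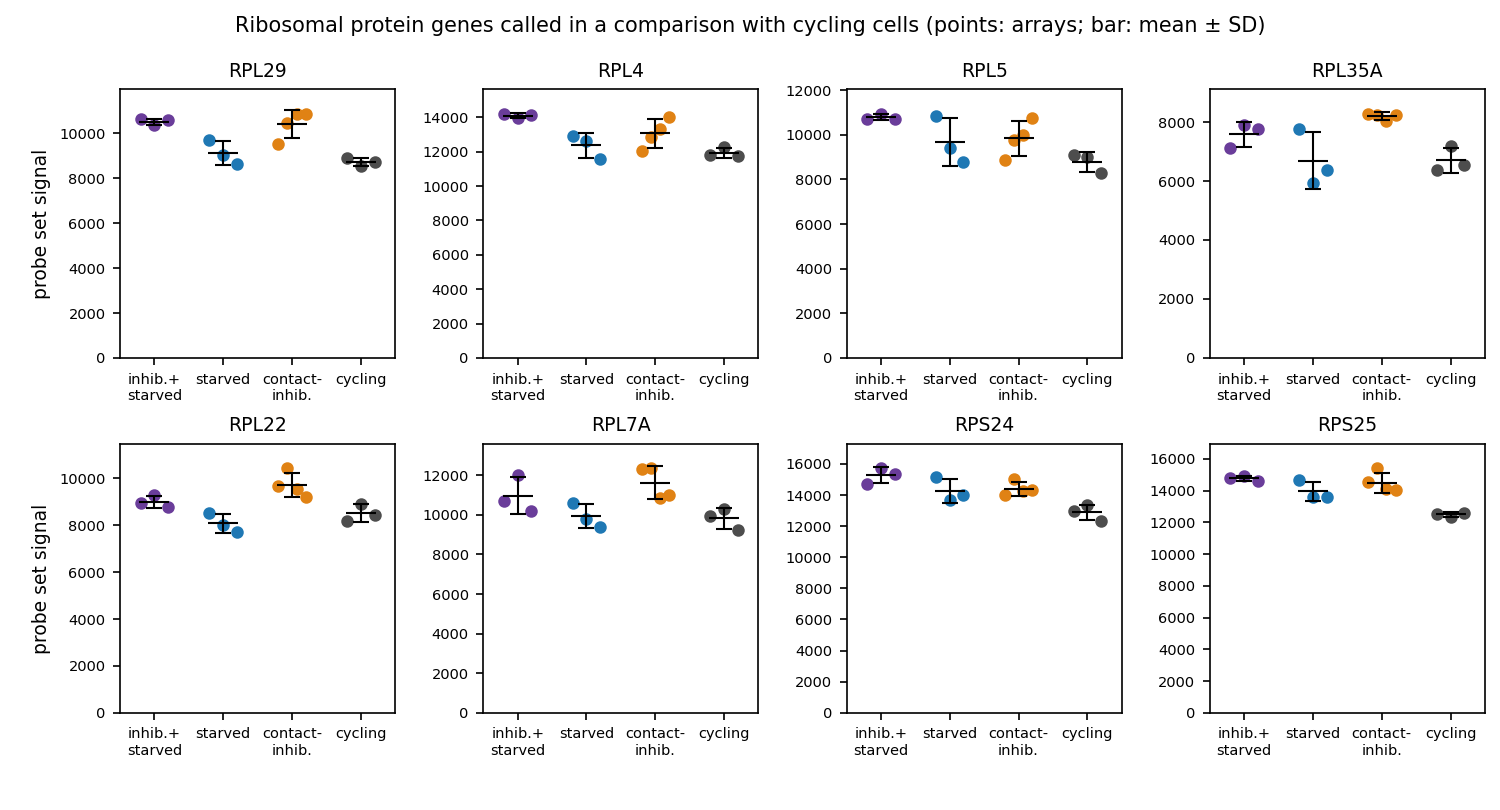
Probe set signal on a linear axis for 8 genes that passed in a comparison with cycling cells, with 1 point per array and the mean ± SD of each group (contact-inhibited and serum-starved, serum-starved, contact-inhibited, cycling). The contact-inhibited and serum-starved points lie above all cycling points for RPL29, RPL4, RPL5, RPS24 and RPS25, while serum-starved points overlap the cycling ones for all of these but RPS24 and RPS25.

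RPL29, RPS24 and RPS25 were called higher in both contact-inhibited groups. The 3 comparisons with cycling cells share the same cycling arrays, so their calls are not independent of each other. RPL5, RPL4 and RPL37 passed in contact-inhibited and serum-starved cells and read 0.16 (adjusted p = 0.144), 0.13 (0.123) and 0.07 (0.247) in contact-inhibited cells. RPL35A, RPL7A and RPL22 passed in contact-inhibited cells and read 0.18 (adjusted p = 0.164), 0.16 (0.172) and 0.08 (0.412) in contact-inhibited and serum-starved cells. No direct comparison of these arrested groups called any of these 6 genes.

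By role, the stalk that recruits translation factors to the large subunit did not pass in any comparison with cycling cells. RPLP0, its base, changed by 0.09 in contact-inhibited and serum-starved, 0.01 in serum-starved and 0.07 in contact-inhibited cells, and RPLP1 by 0.02, -0.02 and 0.09. RPL12, which sits beside the stalk, changed by 0.11, 0.04 and 0.05. RPLP2, the other acidic stalk protein, read 8158, 7175 and 7085 in contact-inhibited and serum-starved cells, 9042, 7320 and 6859 in serum-starved cells and 7814, 9135, 9997 and 10464 in contact-inhibited cells, against 8743, 8452 and 8715 in cycling cells. RPLP2 varied more within each arrested group than in cycling cells, and its changes of -0.21, -0.17 and 0.11 had adjusted p of 0.192, 0.364 and 0.489.

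RPL3, which reaches towards the peptidyl transferase centre, changed by -0.01 in contact-inhibited and serum-starved, -0.04 in serum-starved and 0.01 in contact-inhibited cells, with intervals inside -0.16 to 0.12. RPL17, at the tunnel and Z-linked, changed by 0.09, 0.04 and -0.01. Of the proteins around the tunnel exit, RPL19 changed by 0.00, -0.01 and -0.07, RPL23A, a contact of the signal recognition particle, by -0.04, -0.08 and 0.04, and RPL35 by 0.04, 0.03 and -0.01. None of these 5 passed.

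On the small subunit, RPS2 and RPS3 at the mRNA entry changed by -0.02 and 0.14 in contact-inhibited and serum-starved cells, -0.09 and 0.05 in serum-starved cells, and 0.03 and 0.07 in contact-inhibited cells. RPS15 and RPS23, near the decoding site, changed by 0.08 and -0.13, -0.02 and -0.06, and 0.08 and -0.14 in the same order of groups. RPS23, also Z-linked, was the gene with the lowest change in contact-inhibited cells, and it did not pass (adjusted p = 0.112) except with arrays centred, with array weights, or without contact-inhibited replicate 1, alone or together with cycling replicate 3. RPS27A, made as a fusion with ubiquitin, changed by -0.05, -0.02 and -0.05, and RPS20 by -0.01, 0.03 and -0.05. RPS6 changed by 0.09, 0.07 and 0.01.

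Among the genes with symbols of paralogs, RPL39L read 12829 on average and changed by 0.16 in contact-inhibited and serum-starved cells (limma adjusted p = 0.0593). It changed by 0.09 in serum-starved and 0.11 in contact-inhibited cells. In mammals this symbol names a paralog close to RPL39 that is most abundant in testis. No gene with the symbol RPL39 was among the 62. Whether the chicken gene is the counterpart of mammalian RPL39 or of RPL39L was not tested. RPS27L read 1350, 1342 and 1401 in contact-inhibited and serum-starved cells, 1624, 1401 and 1327 in serum-starved cells and 2284, 1596, 1526 and 1360 in contact-inhibited cells, against 1286, 1254 and 1582 in cycling cells. Contact-inhibited replicate 1 stood above the others, and no change of RPS27L passed. RPL22L1, a paralog of RPL22 that falls outside the symbol rule, ran over 1778 to 2805, 2798 to 5693 and 1270 to 3907 in the 3 arrested groups, against 2163 to 2645 in cycling cells, and did not pass either.

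**Figure D3:**
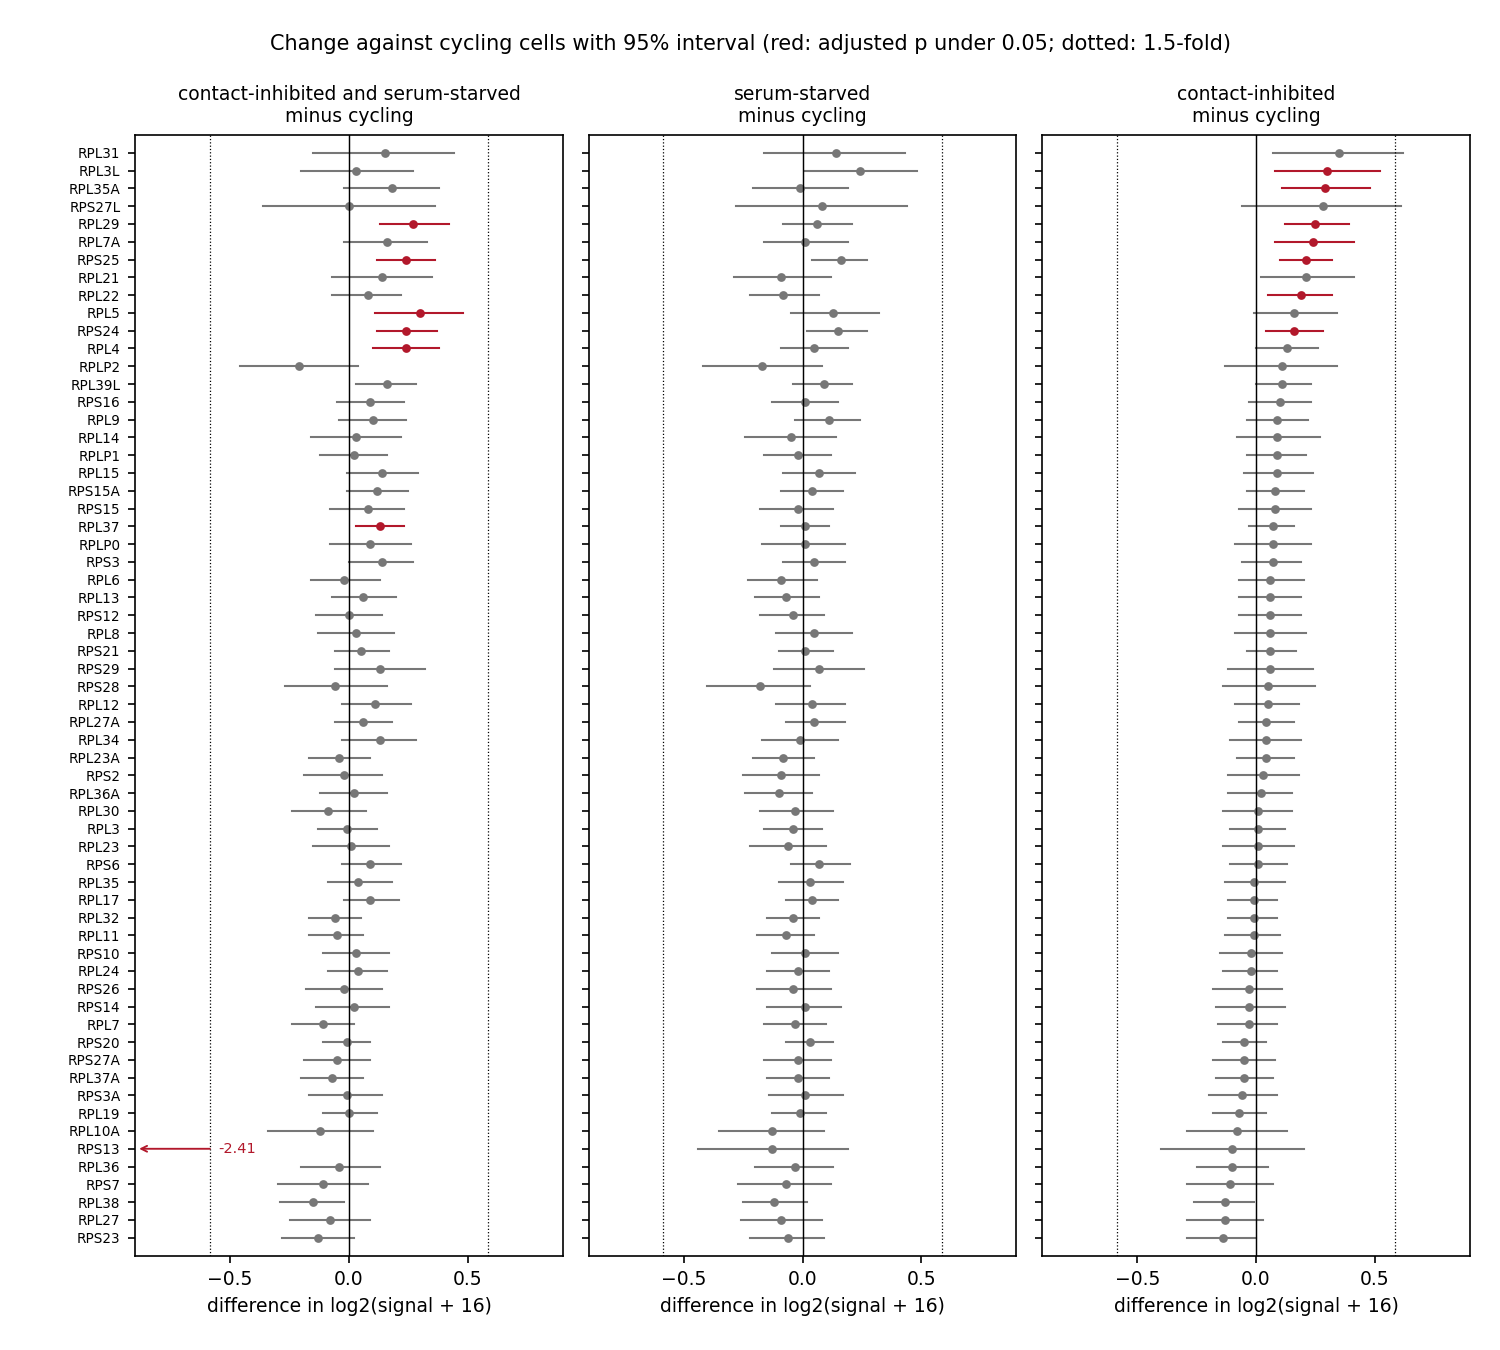
Change of each of the 62 genes against cycling cells in contact-inhibited and serum-starved (left), serum-starved (middle) and contact-inhibited cells (right), in log2(signal + 16) with its 95% interval and ordered by the change in contact-inhibited cells. Red marks an adjusted p under 0.05, dotted lines mark a 1.5-fold difference, and an arrow marks RPS13 at -2.41; apart from it, every point lies between the dotted lines.

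Between the arrested groups, serum-starved cells had 0 genes higher and 4 lower than contact-inhibited cells, where 11.8% and 7.5% of all tested probe sets were called. RPL35A read 7774, 5946 and 6360 in serum-starved cells, below all 4 contact-inhibited values, a change of -0.30 (adjusted p = 0.0251). RPL22 read 8525, 7989 and 7708 in serum-starved cells, also below all 4, with a change of -0.27 (adjusted p = 0.00903). RPL21 (-0.30, adjusted p = 0.0319) and RPL29 (-0.19, adjusted p = 0.0487) passed as well, both with overlapping values. Without serum-starved replicate 2 or 3, or without contact-inhibited replicate 2, the count of 4 became 1; it was 2 without contact-inhibited replicate 3 or 4, and 0 without the trend in limma. With the W-linked level as a covariate 1 gene was higher and 0 were lower. That level was lower on every array without serum than on all arrays with serum but contact-inhibited replicate 1. Adjusting for it therefore also takes up part of the serum difference, and these cannot be told apart here. RPL35A then read -0.19 (limma adjusted p = 0.29) and RPL22 -0.23 (adjusted p = 0.0908). Of all 28270 tested probe sets, 3670 were higher and 1584 lower with this covariate. RPL35A did not pass without serum-starved replicate 2 or 3 or contact-inhibited replicate 2.

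Contact-inhibited and serum-starved cells differed from contact-inhibited cells in 0 genes higher and 1 lower (10.6% and 6.59% of all tested probe sets), and from serum-starved cells in 0 higher and 1 lower (0.485% and 0.478%). The 1 gene was RPS13 in both. The interaction, which is the effect of serum removal in confluent cells minus its effect in sparse cells, called 0 genes above and 2 below 0 (5.96% and 4.85% of all tested probe sets), RPS13 at -2.18 (adjusted p = 2.2e-05) and RPL3L at -0.51 (adjusted p = 0.0435). RPL3L read 33.0, 29.1 and 36.6 in contact-inhibited and serum-starved cells and 42.5, 39.6 and 39.5 in serum-starved cells, so that both single treatments lay above the combined one. The RPL3L interaction did not pass when any of 10 of the 13 arrays was left out in turn.

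RPS13 was the single gene with a change beyond 1.5-fold. Its chosen probe set read 149, 145 and 144 in contact-inhibited and serum-starved cells, 725, 851 and 742 in serum-starved cells and 659, 774, 744 and 997 in contact-inhibited cells, against 889, 863 and 778 in cycling cells. The combined treatment lay far below all other arrays, which overlapped each other, and the change against cycling cells was -2.41 ± 0.15 (limma adjusted p = 1.96e-07). The interval ran over -2.72 to -2.09, and the mean signal was 146 in contact-inhibited and serum-starved cells and 843 in cycling cells.

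This probe set lies in the antisense orientation by its ID, and the other probe sets of RPS13 did not move with it except the second antisense one. That second probe set read 67.9, 53.9 and 53.4 in contact-inhibited and serum-starved cells, against 118, 91.8 and 108 in cycling cells, a change of -0.71 (adjusted p = 0.00608). The 3 sense probe sets with RPS13 as their single symbol were dim, with means of 51.5 to 70.6, and changed by 0.08, -0.03 and -0.25 without passing. A bright sense probe set that the annotation gives to RPS13 together with another gene, and which the rule therefore left out, read 14714, 14102 and 13415 in contact-inhibited and serum-starved cells, against 14965, 14467 and 13580 in cycling cells. Its change was -0.03 (adjusted p = 0.785). The fall was thus measured with antisense-orientation probes, and no sense probe set of RPS13 was called in this comparison.

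**Figure D4:**
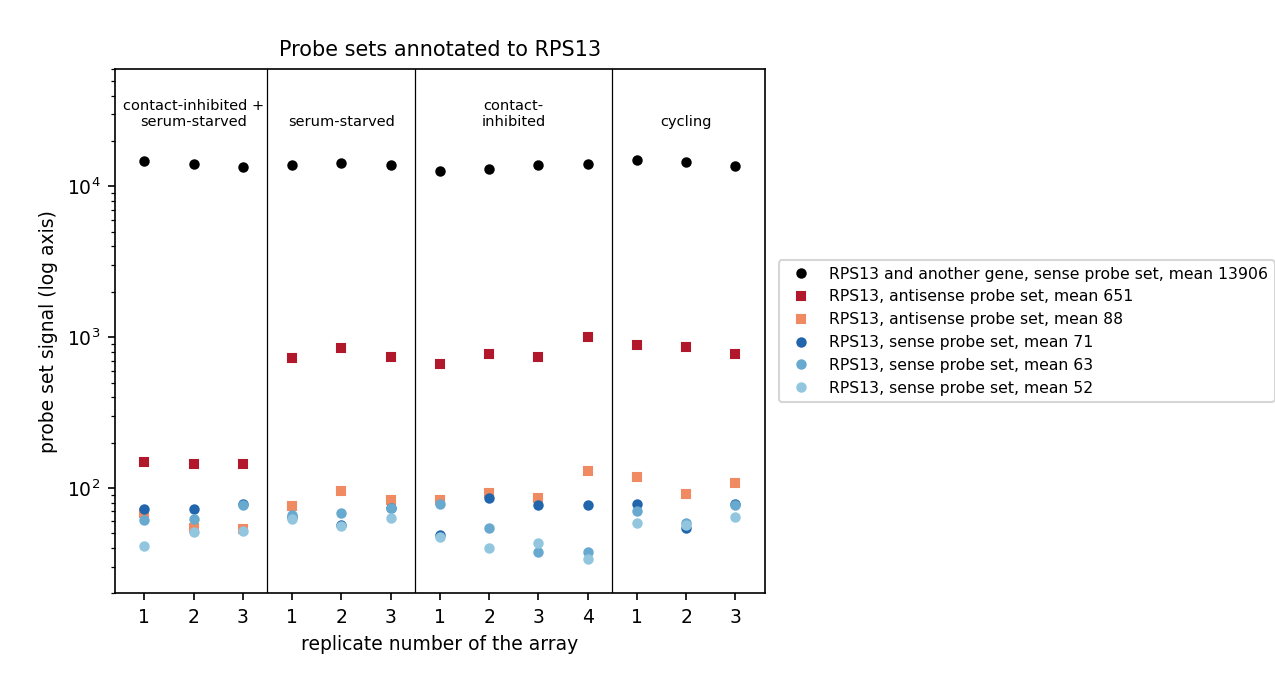
Signal (log axis) of 6 probe sets annotated to RPS13 on each of the 13 arrays, grouped as contact-inhibited and serum-starved, serum-starved, contact-inhibited and cycling, with circles for sense and squares for antisense orientation. The antisense probe set with a mean of 651 drops to between 144 and 149 in contact-inhibited and serum-starved arrays, while the bright sense probe set shared with another gene stays between 12714 and 14965.

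Of the 10 antisense-orientation probe sets of the 62 genes, 8 passed the filter on low signal. In contact-inhibited and serum-starved cells 1 was higher and 4 were lower than in cycling cells, where 8.36% and 7.60% of the 1973 antisense-orientation probe sets of all genes were so. The 4 lower ones were the pair of RPS13, 1 of RPS25 (-0.88, adjusted p = 0.00915) and 1 of RPLP1 (-0.53, adjusted p = 0.0096), and the higher one belonged to RPL29 (0.99, adjusted p = 0.0152). These were dim, RPS25 at 51.5, 53.5 and 58.5 against 108, 98.2 and 138 in cycling cells. In serum-starved cells none of the 8 passed in limma, against shares of 3.9% higher and 2.84% lower for the antisense-orientation probe sets of all genes. In contact-inhibited cells 1 of the 8 was higher and 0 lower, where 13.9% and 6.79% of all of them were so.

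The other 70 probe sets of the 62 genes, 64 of them tested, were also read. Of the 16 at a mean signal of 5000 or more, 3 were higher and 0 lower in contact-inhibited and serum-starved, 0 and 0 in serum-starved and 3 and 0 in contact-inhibited cells than in cycling cells. Of the 48 dimmer ones, 7 were higher and 15 lower, 1 higher and 5 lower, and 11 higher and 7 lower in the same order of groups. The shares over every tested probe set were 17.5% higher with 12.1% lower in contact-inhibited and serum-starved cells, 10.1% with 6.53% in serum-starved cells, and 34.8% called in either direction in contact-inhibited cells (5318 higher and 4513 lower). Genes with probe sets called in opposite directions were RPS14 and RPS25 in contact-inhibited and serum-starved cells and RPL21, RPS12 and RPS14 in contact-inhibited cells.

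RPS14, whose chosen probe set changed by 0.02 in contact-inhibited and serum-starved and -0.03 in contact-inhibited cells, had dim probe sets at -1.27 and -1.61 (mean signal 231), at -1.15 and -0.86 (501) and at 0.52 and 0.81 (931). RPL21 had dim probe sets at -0.81 and at 0.77 in contact-inhibited cells, and RPS12 at -0.44 and at 0.53. RPL12, flat on its chosen probe set, had a second one at a mean of 359 that changed by -1.20, -1.02 and -1.28 in contact-inhibited and serum-starved, serum-starved and contact-inhibited cells, all past the threshold. For RPL29, 3 of the 4 sense probe sets were higher in both contact-inhibited groups, by 0.27 to 0.51 in contact-inhibited and serum-starved and 0.25 to 0.73 in contact-inhibited cells. The antisense-orientation probe set of RPL29 was also higher in both, by 0.99 and 0.80. For RPS25, the 3 bright probe sets changed by 0.24, 0.12 and 0.26 in contact-inhibited and serum-starved cells, and the first and the last of these passed. Among the chosen probe sets, 23 have an a suffix in the ID, which marks probes shared by transcripts of the same gene. A further 13 have an s suffix, which marks probes shared by transcripts of different genes. They are those of RPL3, RPL4, RPL7, RPL17, RPL27, RPL35A, RPL36, RPLP0, RPLP1, RPS3, RPS14, RPS20 and RPS26. For 1 more, RPL24, the ID marks probes able to cross-hybridise. These 13 and RPL24 are uncertain where near-identical copies exist.

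**Figure D5:**
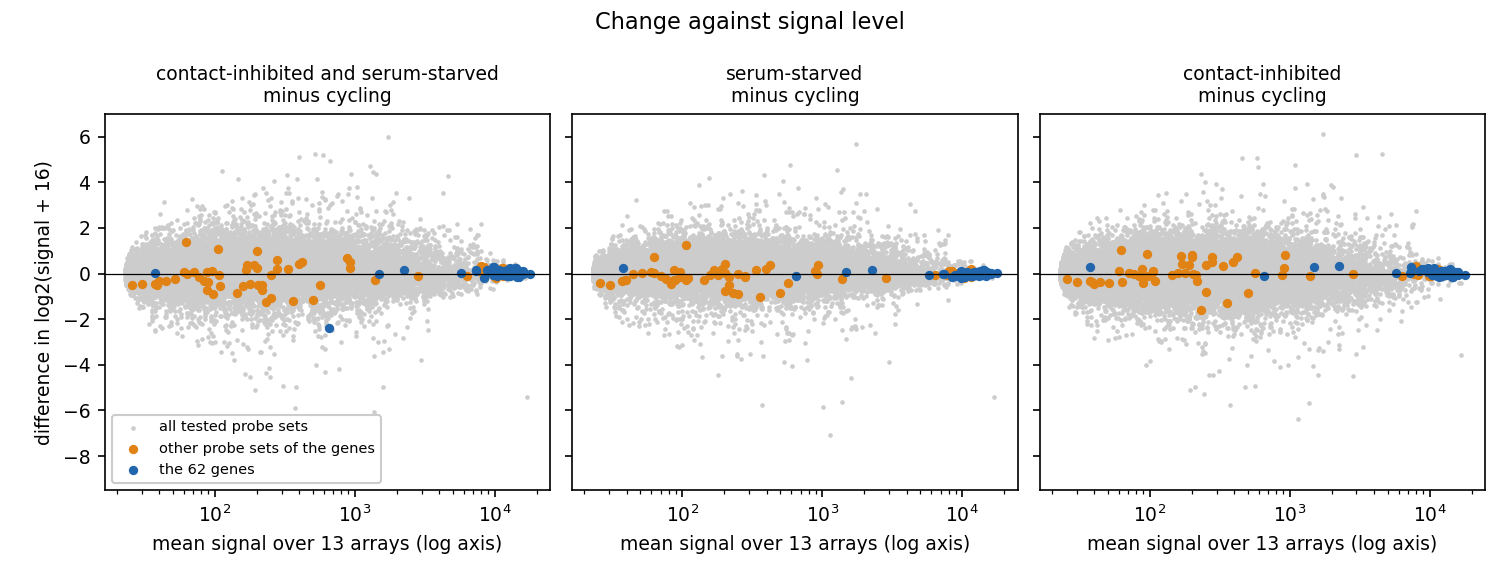
Change against cycling cells in log2(signal + 16) over mean signal (log axis) for all 28270 tested probe sets (grey), the other tested probe sets of the ribosomal protein genes (orange) and the 62 chosen ones (blue), in contact-inhibited and serum-starved (left), serum-starved (middle) and contact-inhibited cells (right). The blue points crowd around 0 at the bright end, with RPS13 below them on the left, while orange points at low signal scatter on both sides.

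Other bright probe sets were tested in the same fit. Of the 325 outside the ribosomal protein genes with a mean of at least 5000, 25.2% were higher and 15.4% lower in contact-inhibited and serum-starved, 18.2% higher and 8.92% lower in serum-starved, and 25.5% higher and 25.2% lower in contact-inhibited cells than in cycling cells. For the 62 genes the counts were 6 higher and 1 lower, 0 and 0, and 7 and 0 in the same order of groups. The 62 include 4 genes below 5000, among them RPS13 and RPL3L. Without RPS13 and RPL3L the counts were 6 and 0, 0 and 0, and 6 and 0 for 60 genes. The difference between the ribosomal protein genes and the other bright probe sets was not tested.

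Within the contact-inhibited group, replicates 1 and 2 both lay above replicates 3 and 4 in 38 of the 62 genes, 16 of the small and 22 of the large subunit, and both below in 14, 2 of the small and 12 of the large. Of all tested probe sets, 27.0% and 13.5% were arranged so. RPS14 read 15063 and 13947 in replicates 1 and 2 and 12545 and 12448 in replicates 3 and 4, and RPS29 read 12249 and 11293 against 9931 and 9929. RPL14 ran the other way, with 9043 and 9937 against 11030 and 10661. The ratio of 3′ to 5′ actin signal was 1.37 and 1.27 in replicates 1 and 2 and 1.70 and 1.65 in replicates 3 and 4, and its part in this was not tested.

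Other genes whose mRNAs carry a TOP motif in mammals, and code for no ribosomal protein, were given as a list. Of 23 tested, 12 were higher and 1 lower in contact-inhibited and serum-starved cells, 6 higher and 1 lower in serum-starved cells, and 12 higher and 1 lower in contact-inhibited cells than in cycling cells (median changes 0.24, 0.16 and 0.23). The shares over all tested probe sets were 17.5% higher and 12.1% lower, 10.1% and 6.53%, and, in contact-inhibited cells, 34.8% in either direction. With arrays centred on their medians the counts were 8 higher and 2 lower, 1 and 2, and 6 and 2. Of all 28270 tested probe sets, 4094 were then higher and 4293 lower, 2128 and 2560, and 3955 and 5561. EIF3H, a subunit of the initiation factor eIF3, read 8237, 8750 and 8604 in contact-inhibited and serum-starved cells, 7007, 7575 and 6530 in serum-starved cells and 7166, 8627, 7968 and 8524 in contact-inhibited cells, against 4909, 4947 and 4101 in cycling cells. All arrested arrays lay above all cycling arrays, with changes of 0.88, 0.60 and 0.79, all past the threshold.

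The eIF3 subunits EIF3F (0.48, 0.38 and 0.57) and EIF3E (0.42, 0.30 and 0.46) also passed in all 3 arrested groups, given as contact-inhibited and serum-starved, serum-starved and contact-inhibited. TPT1, a growth-related protein whose mRNA is a classical TOP mRNA, changed by 0.35, 0.23 and 0.23. RACK1, a scaffold bound to the small-subunit head, rose by 0.24 in both contact-inhibited groups (adjusted p = 0.0297 and 0.0168). The elongation factors EEF1A1 (0.06, 0.05 and -0.04) and EEF2 (0.13, 0.09 and 0.18) did not pass. NACA, a chaperone subunit at the tunnel exit, was the gene that fell: it read 3033, 2882 and 3195 in contact-inhibited and serum-starved cells, against 5408, 5531 and 5947 in cycling cells (-0.89), and changed by -0.71 and -0.94 in the other arrested groups. Its partner BTF3 went the other way in both contact-inhibited groups (0.52 and 0.46).

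Of 28 tested genes that regulate ribosomal protein synthesis, 10 were higher and 2 lower in contact-inhibited and serum-starved, 5 higher and 0 lower in serum-starved and 12 higher and 2 lower in contact-inhibited cells. All tested probe sets were 17.5% higher and 12.1% lower, 10.1% and 6.53%, and 34.8% called in either direction in the same order of groups. RICTOR, the defining subunit of mTORC2, read 1239, 1331 and 1522 in contact-inhibited and serum-starved cells, 793, 712 and 834 in serum-starved cells and 770, 873, 961 and 1107 in contact-inhibited cells, against 541, 482 and 453 in cycling cells. It rose in all 3 (1.44, 0.65 and 0.89), as did the mTORC1 inhibitor DDIT4 (0.46, 0.69 and 0.72) and PDCD4, a translation repressor and S6 kinase target (0.83, 0.72 and 0.41). MYC, which drives ribosome synthesis, read 463, 433, 346 and 324 in contact-inhibited cells, against 1218, 1551 and 918 in cycling cells (-1.59), and did not pass in contact-inhibited and serum-starved (0.33) or serum-starved cells (0.42). MTOR, RPTOR and RPS6KB1 did not pass in any of the 3 comparisons.

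A further list was made up mostly of factors that carry ribosomal proteins, or finish and release subunits. It also held ACD, a telomere protein, and NAP1L1 stood both here and in the TOP list. Of 20 tested, which include the 5S-MDM2 path, 3 were higher and 8 lower in contact-inhibited and serum-starved, 1 higher and 4 lower in serum-starved and 3 higher and 13 lower in contact-inhibited cells. Over all tested probe sets 12.1% were lower in contact-inhibited and serum-starved and 6.53% in serum-starved cells, 17.5% and 10.1% were higher, and 34.8% were called in either direction in contact-inhibited cells. NOB1, the endonuclease that finishes small-subunit RNA, read 514, 445 and 472 in contact-inhibited and serum-starved cells, 896, 742 and 535 in serum-starved cells and 468, 423, 381 and 484 in contact-inhibited cells, against 923, 1014 and 1593 in cycling cells, and fell in all 3 (-1.24, -0.68 and -1.36). HEATR3, which helps to import RPL5 in yeast and human cells, changed by -0.60, -0.37 and -1.12, with the middle value, in serum-starved cells, not past the threshold (adjusted p = 0.0621). ZNF622, a late large-subunit factor, fell by 0.93, 0.92 and 0.93 on the log2 scale. MDM2, the p53 ligase that free RPL5 and RPL11 bind, rose in contact-inhibited and serum-starved (0.84) and serum-starved cells (0.63).

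With the W-linked level as a covariate the factors numbered 2 higher and 2 lower, 1 and 1, and 3 and 13 in those groups. This covariate largely follows serum removal, so its fit cannot separate them. Of the mitochondrial ribosomal proteins, 65 of 67 were tested: 0 were higher and 23 lower in contact-inhibited and serum-starved, 0 and 21 in serum-starved and 2 and 27 in contact-inhibited cells. With the same covariate they numbered 2 higher and 12 lower, 0 and 6, and 4 and 28. Over all tested probe sets, without the covariate, 17.5% were higher and 12.1% lower in contact-inhibited and serum-starved cells. In serum-starved cells the shares were 10.1% and 6.53%. In contact-inhibited cells 5318 of the 28270 were higher and 4513 lower. With the covariate 3174 of all tested probe sets were higher and 1656 lower, 2153 and 1015, and 5681 and 4850 in those groups. Beside these lists the cytosolic members had medians of 0.03, -0.01 and 0.05, and the mitochondrial ones -0.27, -0.29 and -0.20. RSL24D1 and RPL7L1, ribosome-assembly relatives of RPL24 and RPL7, fell in both contact-inhibited groups: RSL24D1 by 0.47 and 0.77 and RPL7L1 by 0.52 and 0.51 on the log2 scale. In serum-starved cells RSL24D1 fell by 0.41 (limma adjusted p = 0.0481), and RPL7L1 read -0.30 (adjusted p = 0.0691). With the W-linked covariate, 0 of the 6 tested genes with symbols of paralogs outside the rule were lower in either group without serum. In each of these groups 1 was higher. In contact-inhibited cells 1 was higher and 2 were lower. Without the covariate RPL26L1, RPSAP58 and RPS4Y1, symbols outside the rule, had changes between -0.10 and 0.10 in the 3 comparisons and did not pass. Whether RPSAP58 and RPS4Y1 name paralogs in chicken was not tested.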

How the data were processed

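Biotin-labelled total RNA of 13 cultures was hybridised to Affymetrix chicken arrays; the labels give 15 µg per sample and exclude RNA with an integrity value under 9.7. The deposited table holds 1 intensity per probe set and array, not logged, made by the authors with Affymetrix Expression Console 1.1 and PLIER, per the submitters' processing notes. The sources used here name neither background options nor array scaling, and nothing further was normalized. Of the chicken probe sets, 27166 had 1 gene symbol in the platform annotation, 177 several and 10350 none. The log2 of signal + 16 was taken, the lowest 25% by mean log2 value (signal under 22.7) were left out, and 28270 were tested.

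Group means over all 13 arrays were fitted with limma 3.58.1 (lmFit, eBayes with trend; R 4.3.3; residual degrees of freedom 9, prior 4.33). Tests were two-sided, with Benjamini-Hochberg adjustment over all tested probe sets per comparison and a threshold of 0.05. Intervals are 95%. Python 3.11.15 and matplotlib 3.10.9 made tables and figures. The procedure was run on simulated data with independent noise for each probe set and array. The simulation held no shifts shared across an array, so it does not cover them. Chromosomes came from the RefSeq chicken annotation.

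The genes, lists, naming rule and alternatives were chosen with earlier results of these data known. For each comparison with cycling cells the rule took the 5 highest and 5 lowest members that passed with groups apart (3 and 3 in the other comparisons), members by role, the brightest and dimmest, and those whose probe sets were called both ways. RPL37, RPL21, RPL14, RPL23, RPL24, RPS29, RPL22 and RPS24 in contact-inhibited cells, the markers and list genes given with values, RPSAP58 and RPS4Y1 were singled out after their values were seen.

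Same-numbered replicates were not paired: over 18 pairs, their residuals had correlations between -0.293 and 0.382, and 4 of 12 arrays were most like one that shared their number. Alternatives were array centring, quantile normalization, signal offsets of 1 and 64, dropping the filter or raising it to the median, no trend, array weights, averaging a gene's probe sets, fitting the compared groups only, a replicate block, the W-linked level as a covariate, leaving out arrays and, chosen after seeing the data, sense-orientation probe sets only.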

Additional observations from a re-analysis of the deposited data

Results flagged for a closer look

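RPL12 in contact-inhibited replicate 1 read 10397, far below the other 3 contact-inhibited arrays for the gap between them (11552, 11710 and 11728). RPL35A in contact-inhibited replicate 3 read 8022, apart from 8288, 8247 and 8255, a narrow range in which a small distance counts as a large share. Such a gap arises by chance in about 1 in 20 groups of arrays, and 62 genes were looked at. The effect of serum removal differed between confluent and sparse cells for RPL3L, with an interaction of -0.51 (limma adjusted p = 0.0435), and for RPS13, on its antisense-orientation probe set, with an interaction of -2.18 (adjusted p = 2.2e-05).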

How the results depend on the processing

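Counts are given as higher and lower genes of the 62. With arrays centred on their medians contact-inhibited cells had 0 and 3 against cycling cells (median -0.065) and serum-starved cells 0 and 1 (median -0.130). Contact-inhibited and serum-starved cells had 0 and 4 (median -0.067), and the interaction median was 0.145. All 28270 tested probe sets moved to -0.05, -0.07 and -0.05. Of them 3955 were higher and 5561 lower, 2128 and 2560, and 4094 and 4293 in the same order of groups. Without the trend 1, 0 and 0 genes were called higher in contact-inhibited, higher in contact-inhibited and serum-starved, and lower in serum-starved against contact-inhibited cells. Array weights gave 2 lower in contact-inhibited, 1 and 3 in serum-starved and 17 and 5 in contact-inhibited and serum-starved against cycling cells, 9 lower in serum-starved against contact-inhibited, 4 and 3 in contact-inhibited and serum-starved against contact-inhibited, and 9 higher against serum-starved cells. The W-linked covariate gave 11 higher in contact-inhibited and 1 higher in serum-starved against cycling cells, 1 and 0 in serum-starved against contact-inhibited cells, and in contact-inhibited and serum-starved cells 3 higher against contact-inhibited and 1 higher against serum-starved cells. The W-linked level largely follows serum removal, so these counts do not separate them. Averaging each gene's probe sets gave 1 lower in contact-inhibited, 1 and 1 in serum-starved and 5 lower in contact-inhibited and serum-starved against cycling cells, 1 higher in serum-starved against contact-inhibited, and 1 and 4 in contact-inhibited and serum-starved against contact-inhibited cells; RPL12 then read -0.54 and -0.62 in contact-inhibited and serum-starved and contact-inhibited cells, and RPLP1 and RPS25 -0.34 and -0.11 in contact-inhibited and serum-starved cells. Sense probe sets alone left 0 lower in all 3 comparisons of contact-inhibited and serum-starved cells, with RPS13 at 0.08 against cycling, 0.06 against contact-inhibited and 0.17 against serum-starved cells and an interaction of 0.14. Quantile normalization gave 2 lower in contact-inhibited and serum-starved against cycling cells. In the fit of the compared arrays alone 1 gene, and with the replicate block 2 genes, were lower in serum-starved against contact-inhibited cells; the interaction uses all arrays in any case. Without cycling replicate 3 and contact-inhibited replicate 1 together, contact-inhibited cells had 3 and 1, contact-inhibited and serum-starved cells 2 lower against cycling and 2 lower against contact-inhibited cells, and 1 higher against serum-starved cells. Under each of these except array weights, the W-linked covariate, the absence of the trend and the fit of the compared arrays, and also with no filter or a filter at the median, the interaction called 1 gene lower, not 2. Leaving out 1 array at a time gave 2 to 8 higher and 0 to 1 lower in contact-inhibited cells (1 without contact-inhibited replicate 1), 1 to 6 lower in serum-starved against contact-inhibited cells, 1 to 2 lower in contact-inhibited and serum-starved against contact-inhibited cells (2 without contact-inhibited replicate 1 or serum-starved replicate 1), and 1 to 2 below 0 in the interaction. The replicate block changed no other count by over 1.5 times. The cause was not tested. The number of arrays and the unknown saturation of bright probe sets limit what can be seen.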
